A study of Mus musculus with 36 samples.

Results

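Wildtype neural stem cells (NSCs) derived from mouse embryonic stem cells (ESCs) were compared with wildtype ESCs by RNA-seq. The comparison used 6 of the 36 samples of the series: 3 wildtype (WT) NSC libraries and 3 WT ESC libraries, chosen by cell type, genotype and assay as the labels give them. All are of male V6.5 cells of a mixed 129/C57BL/6 background with intact TET genes. NSCs were harvested on day 6 of NSC culture at passage 1. ESCs had grown on feeder cells, were freed of them by preplating for 45 minutes and were then kept on gelatin in serum and LIF, a cytokine that maintains ESCs, for 24 hours. The series' design calls the 3 samples of each cell type independent lines, but the labels do not say whether an NSC line came from the ESC line of the same number. The series asks what the TET dioxygenases, which oxidize 5-methylcytosine in DNA, do in the step into NSCs. Its other RNA-seq libraries are of cells with all 3 TET genes knocked out (TKO), 2 of NSCs and 2 of ESCs. The names of their columns mark the same 2 TKO lines in both cell types.

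Mouse ESCs are held in a pluripotent state by a network of transcription factors centred on Pou5f1 (OCT4), Sox2 and Nanog. When LIF and serum are withdrawn the network is shut down, and cells that turn to the neural lineage switch on SoxB1 and POU factors, intermediate filaments such as nestin, and Notch, FGF and patterning genes. NSCs in culture resemble radial glia of the embryonic neural tube, which divide and can give neurons and then glia. In bulk RNA fewer cells of a type and less RNA per cell cannot be told apart.

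The 3 NSC libraries held 42.8 to 46.9 M reads in listed genes, and the 3 ESC libraries 42.0 to 44.2 M. Values are scaled reads per gene: whole reads were recovered from the deposited values, and the 6 libraries were then put on 1 scale by the median of ratios. They are not divided by gene length, so that an order of genes by reads is not an order of their levels. Of the 19426 genes listed for either cell type, 15381 were listed for both, and the 15331 of these with a mean of at least 10 scaled reads were tested. Replicates of a cell type correlated at 0.977 to 0.989 (Pearson's r across genes, log2 scale), and the first principal component, which held 88.1% of the variance, separated the NSC from the ESC libraries. The second held 4.18% and set ESC replicates 1 and 2 apart.

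The labelled cell types were first checked against their defining genes. Nes, which encodes the intermediate filament nestin of neural progenitors, had 56640.4, 49835 and 51024 scaled reads in the NSC libraries, against 4460.1, 5159 and 4772 in the ESC libraries, a log2 fold change of 3.45 ± 0.07 (SE; adjusted p = 3.85e-13, limma). Sox1, a SoxB1 factor that marks neuroectoderm, had 6722, 5847 and 8002 reads in NSCs, against 80.4, 16.3 and 112 in ESCs (log2 fold change 6.97 ± 0.50). Pax6, a paired-box factor of dorsal neural progenitors and the eye, had 2398, 2178 and 2399.9 reads in NSCs, against 105, 112 and 97.8 in ESCs (log2 fold change 4.46 ± 0.14). For all 3 neural markers every NSC library lay above every ESC library. Pou5f1 had 238, 271 and 356 reads in NSCs, against 53281, 62793 and 69901 in ESCs (log2 fold change -7.76 ± 0.13). Nanog had 68.4, 27.5 and 82.1 reads in NSCs, against 19706, 18901 and 18907 in ESCs (log2 fold change -8.45 ± 0.29). Both pluripotency factors were low in every NSC library and high in every ESC library. Summed over Pou5f1, Nanog, Zfp42, Esrrb and Dppa5a, ESC markers came to 377 to 547 reads in the NSC libraries and 145593 to 167379 in the ESC libraries. Sox2, which belongs to the pluripotency network and to NSCs, differed far less: it had 12808, 12234 and 13918 reads in NSCs, against 19902, 20943 and 21252 in ESCs (log2 fold change -0.67 ± 0.06, adjusted p = 3.18e-07).

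**Figure D1:**
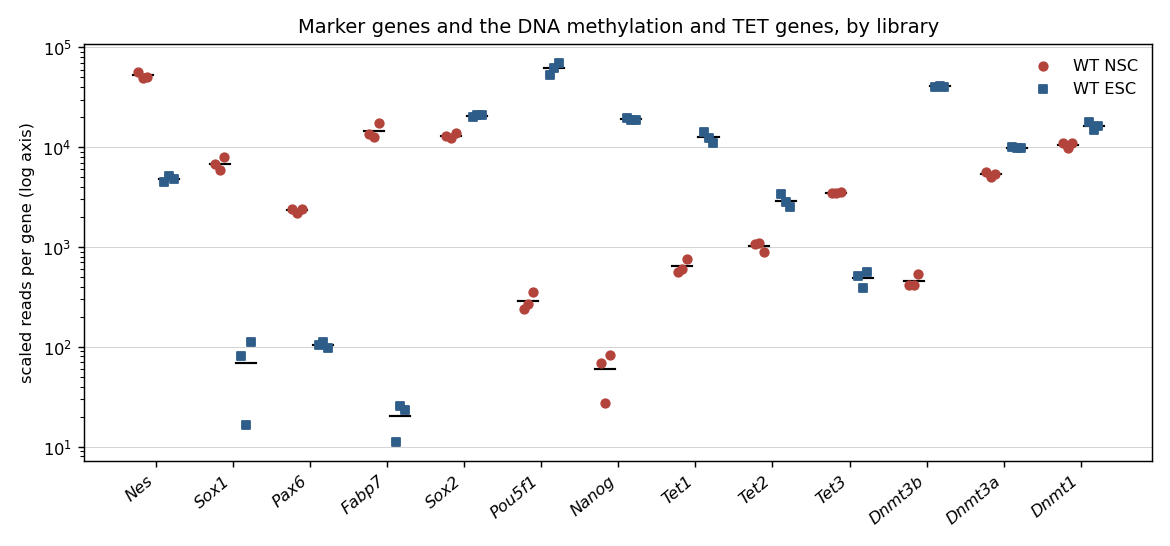
Scaled reads per gene (log axis) of neural and pluripotency markers and of the TET and DNA methyltransferase genes. Each point is 1 library, circles for the 3 WT NSC and squares for the 3 WT ESC libraries, and the bar is their mean. Nes, Sox1, Pax6, Fabp7 and Tet3 lie higher in NSCs, and Sox2, Pou5f1, Nanog, Tet1, Tet2, Dnmt3b, Dnmt3a and Dnmt1 lower, with no overlap between the groups.

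The promoters of 3 genes that rose and 3 that fell are shown because these genes mark the 2 cell states. Each sequence is the 250 bases before the gene's annotated start from RefSeq (GRCm38.p6, the same assembly as mm10), 5′ to 3′ on the gene's strand. Capitals mark the octamer core bound by POU factors such as OCT4 (ATGCAAA or its reverse complement TTTGCAT) and the CCAAT box (CCAAT or ATTGG), searched on both strands.
Nes, chr3:87970843-87971092, plus strand: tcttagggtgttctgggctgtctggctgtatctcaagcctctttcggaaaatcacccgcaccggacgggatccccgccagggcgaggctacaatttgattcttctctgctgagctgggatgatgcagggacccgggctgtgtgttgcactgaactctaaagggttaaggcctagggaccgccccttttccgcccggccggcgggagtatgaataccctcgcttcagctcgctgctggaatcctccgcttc
Pax6, chr2:105668646-105668895, plus strand: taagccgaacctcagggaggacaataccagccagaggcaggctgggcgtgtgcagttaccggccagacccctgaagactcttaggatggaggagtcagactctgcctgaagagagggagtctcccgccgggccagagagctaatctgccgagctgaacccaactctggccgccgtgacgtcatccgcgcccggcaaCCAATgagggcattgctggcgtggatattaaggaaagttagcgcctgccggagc
Fabp7, chr10:57784673-57784922, plus strand: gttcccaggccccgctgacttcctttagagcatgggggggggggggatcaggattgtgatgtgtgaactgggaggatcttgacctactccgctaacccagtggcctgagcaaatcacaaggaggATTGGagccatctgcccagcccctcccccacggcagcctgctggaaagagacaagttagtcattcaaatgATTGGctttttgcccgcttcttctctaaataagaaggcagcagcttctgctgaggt
Pou5f1, chr17:35505782-35506031, plus strand: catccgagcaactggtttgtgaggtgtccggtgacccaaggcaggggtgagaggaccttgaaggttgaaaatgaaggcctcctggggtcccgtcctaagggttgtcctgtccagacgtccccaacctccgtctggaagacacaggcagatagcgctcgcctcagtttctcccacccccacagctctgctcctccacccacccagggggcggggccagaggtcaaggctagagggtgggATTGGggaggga
Nanog, chr6:122707239-122707488, plus strand: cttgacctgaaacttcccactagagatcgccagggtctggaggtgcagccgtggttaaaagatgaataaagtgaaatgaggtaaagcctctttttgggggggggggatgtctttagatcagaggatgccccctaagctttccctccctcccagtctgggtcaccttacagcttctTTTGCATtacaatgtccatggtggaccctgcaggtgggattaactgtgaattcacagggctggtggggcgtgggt
Zfp42, chr8:43307010-43307259, minus strand: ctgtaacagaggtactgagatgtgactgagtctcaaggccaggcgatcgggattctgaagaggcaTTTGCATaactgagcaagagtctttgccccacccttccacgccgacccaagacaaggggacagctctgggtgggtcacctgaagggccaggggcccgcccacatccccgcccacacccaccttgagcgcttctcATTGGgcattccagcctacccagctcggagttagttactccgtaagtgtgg
Of all 27025 promoters of this length, 4.06% held the octamer core and 34.5% a CCAAT box. The octamer core stood 75 bases before the start of Nanog and 185 bases before that of Zfp42, both ESC genes. A CCAAT box stood 54 bases before the start of Pax6, 126 and 56 before that of Fabp7, 12 before that of Pou5f1 and 51 before that of Zfp42. The window of Nes held neither motif. A match describes these letters and is no evidence of binding. Motif shares by direction of change are not given, since 72.5% of the tested genes had a promoter in the table, too few for such a comparison.

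Across the transcriptome 5818 genes were higher in NSCs (37.9% of those tested) and 5787 lower (37.7%), together 75.7%, at an adjusted p under 0.05 (limma). With a change of at least 2-fold as well, 3737 were higher (24.4%) and 3282 lower (21.4%), and at least 8-fold 946 were higher (6.17%) and 597 lower (3.89%). In 78.8% of tested genes the 3 NSC and 3 ESC libraries did not overlap. With so many genes called, a gene list is described below by its members past 2-fold, to be read against the shares of 24.4% and 21.4%. The scaling set the split between directions: with the libraries scaled to equal totals instead, each log2 fold change was 0.33 higher, and 7224 genes were higher (61.4% of those called) and 4548 lower, against 50.1% higher in the scaling used.

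**Figure D2:**
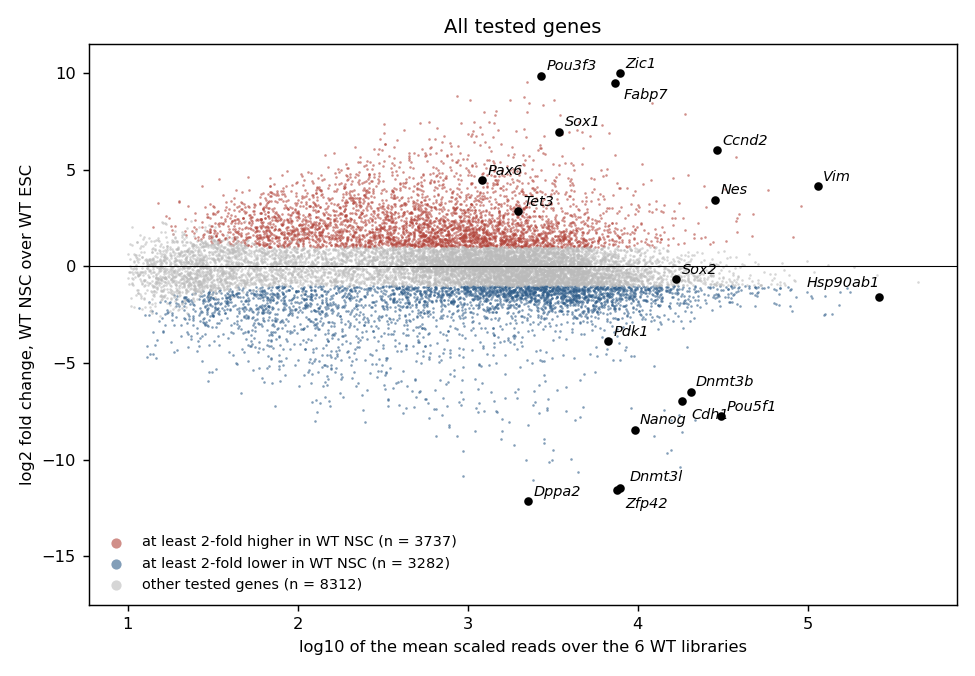
Log2 fold change of WT NSC over WT ESC for each tested gene against the log10 of its mean scaled reads. Red points are the 3737 genes at least 2-fold higher in NSCs, blue points the 3282 at least 2-fold lower and grey points the other tested genes; 19 named genes are in black, from Zic1 at the top to Dppa2 at the bottom.

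The 12 largest increases included 5 genes of transcription factors and 7 of other proteins. Zic1 (chr9:91358058-91365768, GRCm38.p6), a zinc-finger factor of dorsal neural tissue, had 15870.3, 14358 and 16975 reads in NSCs, against 13.4, 18.7 and 11.6 in ESCs (log2 fold change 10.003 ± 0.18). Pou3f3 (BRN1), a POU factor of neural progenitors, had 5402, 4959.5 and 5871 reads in NSCs, against 33.5, 0 and 4.66 in ESCs (log2 fold change 9.86 ± 0.87). Dmrta2, a factor of cortical and midbrain progenitors, had 4915, 4304 and 4185 reads in NSCs, against 0, 6.999 and 25.6 in ESCs (log2 fold change 9.54 ± 0.82). All 3 were high in every NSC library and low in every ESC library, where Pou3f3 and Dmrta2 varied from 0 upwards and have wide standard errors. Fabp7 (BLBP), a lipid-binding protein of radial glia, had 13716, 12580.1 and 17579.9 reads in NSCs, against 11.2, 25.7 and 23.3 in ESCs (log2 fold change 9.51 ± 0.25). Nr2f1 (COUP-TFI), an orphan nuclear receptor that patterns the cortex, had 6192, 6061 and 7028 reads in NSCs, against 16.7, 16.3 and 13.98 in ESCs (log2 fold change 8.59 ± 0.17). Nfia, a factor of gliogenesis, had 5832, 5043 and 5796 reads in NSCs, against 33.5, 23.3 and 4.66 in ESCs (log2 fold change 8.37 ± 0.49). The other 6 of the 12 largest were Igfbp5, which binds insulin-like growth factors, the basement membrane collagen Col4a6, the synaptic adhesion gene Lrrc4b, the xylosyltransferase gene Gxylt2, Gdpd2 and Ecrg4, with log2 fold changes of 8.43, 8.45, 8.77, 8.63, 8.82 and 8.61.

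The 12 largest decreases included markers of pluripotency. Dppa2 (chr16:48310274-48319513), a DNA-binding protein of early embryos and ESCs, had 0 reads in each NSC library, against 4651, 4491 and 4411 scaled reads in ESCs. Set against a floor of 3 reads over the NSC group it was at least 5198-fold lower in NSCs. Tex19.1, a germline and placenta gene silenced by DNA methylation in somatic cells, also had 0 reads in each NSC library, against 1349, 2018 and 2283 in ESCs, at least 2157-fold lower by the same floor. Zfp42 (REX1), a zinc-finger marker of naive ESCs, had 3.51, 5.49 and 3.28 reads in NSCs, against 14557, 15102 and 15495 in ESCs (log2 fold change -11.55 ± 0.21). Dnmt3l, the catalytically inactive partner of the de novo DNA methyltransferases, had 5.26, 5.49 and 3.28 reads in NSCs, against 15266, 16171 and 16149.8 in ESCs (log2 fold change -11.47 ± 0.20). Both kept a few reads in each NSC library. The growth factor gene Fgf4, which ESCs secrete and which drives them towards differentiation, had 3.51, 7.33 and 3.28 reads in NSCs, against 6126, 5630.3 and 6299 in ESCs (log2 fold change -10.11 ± 0.28). Tdh, threonine dehydrogenase, on which mouse ESC metabolism depends, had 36.8, 43.95 and 30.4 reads in NSCs, against 31279.8, 29017 and 29602 in ESCs (log2 fold change -9.64 ± 0.13). The rest of the 12 were Gdf3, Fbxo15, Dppa5a, Trap1a, the long noncoding RNA Platr10 and the Nodal antagonist Lefty2, with log2 fold changes between -11.05 and -9.98.

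By reads gained, a ranking that also depends on gene length, the 8 largest increases included cytoskeletal, matrix and metabolic genes. Vim, the intermediate filament vimentin, had 219264, 227659 and 206055 reads in NSCs, against 11878, 12969.5 and 12248 in ESCs (log2 fold change 4.14 ± 0.06). Igfbp2, another binding protein of insulin-like growth factors, had 171731, 177085 and 144658 reads in NSCs, against 16940.5, 18961 and 19745 in ESCs (log2 fold change 3.15 ± 0.08). Sparc, a matrix-associated protein, had 112718, 121304 and 97949.8 reads in NSCs, against 6776, 7431 and 7304 in ESCs (log2 fold change 3.94 ± 0.07). The others of the 8 largest gains were Acta2 (smooth muscle actin), Serpinh1 (a collagen chaperone), Tpm1 (tropomyosin), Ckb (brain creatine kinase) and Scd2 (a fatty acid desaturase), with log2 fold changes of 5.63, 3.98, 2.73, 2.69 and 1.51. The largest losses were of chaperone, translation, nucleolar and glycolytic genes. Hsp90ab1, a cytosolic chaperone, had 134154, 126086 and 129208 reads in NSCs, against 407276, 389276 and 391107 in ESCs (log2 fold change -1.61 ± 0.06). Ncl, the nucleolar protein nucleolin, had 41109.6, 36649 and 38145 reads in NSCs, against 213358, 220805 and 214101 in ESCs (log2 fold change -2.49 ± 0.06). Npm1 (-2.53), Hsp90aa1 (-2.46), Pkm (-2.01), Hspa8 (-1.35), Gapdh (-1.33) and the elongation factor Eef1a1 (-0.81) completed the 8, all as log2 fold changes with no overlap between the groups. Of 5 markers of feeder fibroblasts 4 were also higher in NSCs and 1, Thy1, was lower; they are given with the mesenchymal genes below. Several of the abundant genes have processed copies in the genome with which reads may be shared.

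Pluripotency factors fell. Of 13 tested naive and core pluripotency factors 12 were at least 2-fold lower in NSCs and 0 higher, with a median log2 fold change of -7.67, against -0.01 over all tested genes. The 13th, Sox2, is the one given above. Utf1, a chromatin-associated ESC protein, had 35.1, 42.1 and 50.9 reads in NSCs, against 31995, 30709.6 and 30956 in ESCs, and the orphan nuclear receptor gene Esrrb had 50.9, 43.95 and 78.8 in NSCs, against 26956, 24054 and 23314 in ESCs. Klf4, a Krüppel-like factor and reprogramming factor, had 446, 461 and 427 reads in NSCs, against 11089, 11424 and 10900.5 in ESCs. Of 16 tested pluripotency effectors all 16 were at least 2-fold lower (median -9.57, the same with Dppa2 at its bound). They include L1td1, an RNA-binding protein (61.4, 117 and 118 reads in NSCs, against 38465, 36725 and 34820.0 in ESCs), and Lin28a, which blocks let-7 processing (184, 170.3 and 135 reads in NSCs, against 26955, 29724 and 28363 in ESCs). Genes of the primed epiblast split: of 12 tested 5 were at least 2-fold higher and 4 lower. Fgf5, the classical epiblast marker, had 118, 89.7 and 68.1 reads in NSCs, against 1323, 2069 and 1689 in ESCs, and Dnmt3b was lower too (below). Otx2, which serves both the epiblast and the anterior neural plate, had 5510.0, 5044 and 5561 reads in NSCs, against 1908, 2056 and 2169 in ESCs (log2 fold change 1.39 ± 0.07). Sall2, a zinc-finger factor, and the growth factor gene Fgf15 rose most, by 2.65 and 2.55 on the log2 scale.

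Genes of NSCs and radial glia rose. Of 22 tested, 19 were at least 2-fold higher in NSCs and 0 lower, with a median log2 fold change of 3.58. Sox2, which also belongs to NSCs and fell by less than 2-fold, was counted with the pluripotency factors and not here. Cdh2 (N-cadherin), the adhesion molecule of neuroepithelium, had 20858, 20374 and 20991 reads in NSCs, against 476, 599.5 and 496 in ESCs (log2 fold change 5.31 ± 0.09). Sox9, a factor of stem cell maintenance and gliogenesis, had 1840.5, 1911 and 1853 reads in NSCs, against 241, 227 and 263 in ESCs (log2 fold change 2.93 ± 0.12). Slc1a3 (GLAST), a glutamate transporter of radial glia, had 3189, 3581 and 3723 reads in NSCs, against 1397, 1404 and 1272 in ESCs, and Hopx, a marker of outer radial glia, had 391, 386 and 434 in NSCs, against 83.7, 224 and 189 in ESCs. Every NSC library lay above every ESC library for each of these 4 genes. The Notch effector Hes1 and the receptor Notch1 were the members that did not pass: Hes1 had 3920.4, 4374 and 4119 reads in NSCs, against 3968, 3854 and 3722 in ESCs (adjusted p = 0.18), and Notch1 had 2282, 2576 and 2574 in NSCs, against 2878, 1849 and 1946 in ESCs (adjusted p = 0.248). Notch1 passed without ESC replicate 1 (log2 fold change 0.379, adjusted p = 0.00112), and both genes passed with equal totals, Hes1 at 0.438 and Notch1 at 0.516.

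Glial and neuronal genes gave a mixed picture. Of 11 tested astroglial genes 7 were at least 2-fold higher and 1 lower (median 2.65). The nuclear factor I genes Nfia and Nfix rose most, Nfix with 7149, 7278 and 7546 reads in NSCs, against 149.6, 163 and 231 in ESCs, while Apoe, an apolipoprotein gene, was the member that fell (4439.8, 4376 and 4130.1 reads in NSCs, against 21257, 26152 and 25689 in ESCs). Gja1 (connexin 43), a gap junction gene, had 10721, 10875 and 9363 reads in NSCs, against 14823, 13911 and 14085 in ESCs. That decrease of 0.47 on the log2 scale became 0.14, with an adjusted p of 0.0587, under equal totals. Gfap, the filament of mature astrocytes, stayed low in both, with 33.3, 69.6 and 44.3 reads in NSCs and 40.2, 39.7 and 10.5 in ESCs (log2 fold change 0.84 ± 0.58, adjusted p = 0.208). Aldh1l1, an enzyme of folate metabolism used as an astrocyte marker, rose, with 407, 501 and 651 reads in NSCs, against 109, 240.3 and 259.7 in ESCs (log2 fold change 1.42 ± 0.30). The 4 astrocyte markers Gfap, Aqp4, S100b and Aldh1l1 summed to 458 to 726 reads in NSCs and 150 to 280 in ESCs, where Aqp4 and S100b are not listed, and most of the sum was of Aldh1l1. Oligodendroglial genes mostly stayed within 2-fold: of 11 tested 1 was higher and 2 lower. The members that fell past 2-fold, Bcas1 and Cspg4 (NG2), had log2 fold changes of -4.78 and -3.53, and Olig1 fell by less than 2-fold, with 779, 952 and 1248 reads in NSCs, against 1655, 1964 and 1831 in ESCs. The one that rose was Nkx2-2, a ventral progenitor factor, with 861, 1291 and 1363 reads in NSCs, against 15.6, 6.999 and 11.6 in ESCs. Olig2, a factor of ventral progenitors and the oligodendrocyte lineage, had 691, 943 and 1237 reads in NSCs, against 649.8, 713 and 618 in ESCs (log2 fold change 0.50 ± 0.18, adjusted p = 0.0219), and the groups overlapped. Leaving out NSC replicate 2, NSC replicate 3 or ESC replicate 3 ended the call of Olig2, with adjusted p-values of 0.0518, 0.124 and 0.071. The 4 oligodendroglial markers, of which Sox10 was listed for neither cell type, summed to 596 to 719 reads in the NSC and 459 to 546 in the ESC libraries. Of 17 tested neurogenic and neuronal genes 8 were at least 2-fold higher and 3 lower (median 0.14). Syt1, the calcium sensor of synaptic vesicles, had 1816, 2074 and 2063 reads in NSCs, against 8.93, 39.7 and 11.6 in ESCs, and Gad2, an enzyme of GABA synthesis, had 135, 190.5 and 211 in NSCs, against 29.03, 0 and 23.3 in ESCs. The 3 that fell encode cytoskeletal proteins: Stmn2 had 2251, 2430.3 and 2667 reads in NSCs, against 9673, 10432 and 9659 in ESCs, and Ina and Nefl had log2 fold changes of -2.86 and -2.64. Summed over Dcx, Stmn2, Snap25, Rbfox3 and Elavl4, neuronal markers came to 3698 to 4502 reads in NSCs and 9787 to 10608 in ESCs, where Dcx is not listed and Stmn2 gave most of the sum. Tubb3, a tubulin often used as a neuronal marker, also fell, with 2723, 2556 and 3575 reads in NSCs, against 4944, 5503 and 5373 in ESCs (log2 fold change -0.85 ± 0.11). Tubb3 lies on chromosome 8, whose genes as a set were lower in NSCs (below), and its log2 fold change was -0.51 with the median of each chromosome removed.

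Forebrain patterning genes rose. Each of the 4 tested was at least 2-fold higher in NSCs (median 4.82), and 10 more were listed for NSCs only (below). Otx1 had 2583, 2109 and 2369 reads in NSCs, against 44.7, 4.67 and 13.98 in ESCs, and Lhx2 had 585, 733 and 592 in NSCs, against 0, 9.33 and 48.9 in ESCs. Mid-hindbrain and spinal genes split, with 5 of 14 higher and 5 lower. Pax2, of the midbrain-hindbrain boundary, had 1424, 1338 and 1130.2 reads in NSCs, against 29.03, 23.3 and 0 in ESCs, and En1, of the same region, had 572, 646 and 805 in NSCs, against 96.01, 177 and 55.9 in ESCs. Egr2 (KROX20) fell by 2.87 on the log2 scale. Irx1, an Iroquois factor, rose to 1306, 1651 and 1665 reads in NSCs, against 60.3, 37.3 and 32.6 in ESCs, and the isthmic growth factor gene Fgf17 fell to 504, 331 and 448 in NSCs, against 1596, 1695 and 1738 in ESCs. Of 10 tested dorsoventral genes 4 were higher and 1 lower. Lmx1a, a factor of the roof plate and midbrain floor plate, had 695, 657 and 576 reads in NSCs, against 8.93, 4.67 and 0 in ESCs. The lower one was Nkx6-2, a homeobox gene, with 107, 95.2 and 239 reads in NSCs, against 291, 248 and 306 in ESCs (log2 fold change -1.06 ± 0.32), and its call was lost with equal totals (log2 fold change -0.72, adjusted p = 0.0572), where 0 were lower past 2-fold. Gli2, a transcription factor of hedgehog signalling, fell by less than 2-fold, with 1696, 1237 and 1572 in NSCs, against 2495, 2164 and 2376 in ESCs.

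Genes of other lineages were measured as well. Of 8 tested neural crest genes 4 were at least 2-fold higher and 3 lower: Twist1 had 2841, 2987 and 2704 reads in NSCs, against 233, 344 and 341 in ESCs, and Foxd3, which also serves ESCs, had 5.26, 7.33 and 4.92 in NSCs, against 1387, 1406 and 1424 in ESCs. Tfap2a rose by 3.33 on the log2 scale, and the neurotrophin receptor gene Ngfr had 50.9, 51.3 and 57.5 reads in NSCs, against 815, 632 and 443 in ESCs. Sox10, the defining gene of migrating neural crest and of oligodendroglia, was listed for neither cell type. Of 9 mesodermal genes 2 were higher and 3 lower, and of 6 endodermal genes 3 and 3. Kdr (VEGFR2) had 1823, 1523 and 1492 reads in NSCs, against 46.9, 69.99 and 72.2 in ESCs, and T (brachyury) had 532, 616 and 544 in NSCs, against 824, 1218 and 969 in ESCs. Isl1 rose by 2.47 on the log2 scale, whereas Tcf15 and Mixl1, a factor of the primitive streak, had log2 fold changes of -4.11 and -2.83. Foxa1, a forkhead factor of endoderm and also of the floor plate, had 2083, 3069 and 2355 reads in NSCs, against 6.70, 20.996 and 4.66 in ESCs, Foxa2 had 759, 993 and 972 in NSCs, against 397, 383 and 338 in ESCs, and Sox17, of definitive endoderm, had 3.51, 7.33 and 8.21 in NSCs, against 53.6, 25.7 and 37.3 in ESCs. Dab2, an adaptor protein gene, rose by 2.90 on the log2 scale, and Cer1, a secreted Nodal antagonist, had a log2 fold change of -2.68. Of 5 trophoblast genes 0 were higher and 4 lower, among them Tfap2c, with 211, 227 and 268 reads in NSCs, against 5067, 4603 and 4719 in ESCs, and Cdx2, with 0, 0 and 9.85 in NSCs, against 31.3, 69.99 and 41.9 in ESCs. Pecam1, an endothelial adhesion gene that ESCs express, had 21.1, 10.1 and 19.7 reads in NSCs, against 2502, 2262 and 2215 in ESCs.

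Matrix and contractile genes of fibroblasts and mesenchyme were high in NSCs. Of 13 tested, 11 were at least 2-fold higher and 2 lower (median 3.39). Col3a1, a fibrillar collagen, had 23079.5, 25404 and 20498 reads in NSCs, against 1075, 1131 and 886 in ESCs (log2 fold change 4.48 ± 0.10). Dcn, the proteoglycan decorin, had 1329.9, 1908 and 1496 reads in NSCs, against 20.1, 37.3 and 25.6 in ESCs. The surface protein gene Thy1, by contrast, had 98.3, 172 and 163 reads in NSCs, against 768, 854 and 957 in ESCs, and S100a4, a calcium-binding protein gene, had 125, 88.8 and 75.5 in NSCs, against 226, 314 and 290.0 in ESCs. All 5 of 5 markers fixed for feeder fibroblasts (Col1a1, Col1a2, Col3a1, Thy1 and Pdgfrb) were listed in both cell types, and their sum was 37318 to 47205 reads in the NSC libraries and 7051 to 8324 in the ESC libraries. Their part in the result was not tested. Epithelial genes fell: of 15 junction and epithelial genes 13 were at least 2-fold lower in NSCs and 0 higher (median -4.52). Cdh1 (E-cadherin) had 259, 312 and 300.4 reads in NSCs, against 40500.3, 34033 and 34089 in ESCs (log2 fold change -6.96 ± 0.09; -6.61 with chromosome medians removed, since it lies on chromosome 8). Grhl2, a factor that maintains epithelia, had 14.9, 12.8 and 0 reads in NSCs, against 2433, 2216 and 1999.8 in ESCs, and the tight-junction gene Cldn4 had 36.8, 25.6 and 75.5 in NSCs, against 6951, 7586 and 8172 in ESCs.

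Signalling genes were grouped by pathway and then by role. Among Wnt genes 9 of 20 were at least 2-fold higher and 6 lower. The ligand gene Wnt5a had 3280.0, 3821 and 3689 reads in NSCs, against 118, 95.6 and 119 in ESCs. Of the receptors, Fzd1 had 5281, 5268 and 5301 reads in NSCs, against 46.9, 90.98 and 94.3 in ESCs, and Fzd5 had 327, 451 and 458 in NSCs, against 4609.7, 3719.7 and 4124 in ESCs. The repressor of Wnt targets Tcf7l1 fell, with 3494, 3540.2 and 3296 reads in NSCs, against 7923, 7081 and 6879.9 in ESCs. Among Notch genes 5 of 15 were higher and 1 lower: Lfng, a glycosyltransferase that modifies the receptors, had 2126, 2114 and 2651 reads in NSCs, against 421, 498 and 466 in ESCs, the effector gene Heyl rose by 2.48 on the log2 scale, and Rbpj, the DNA-binding effector, had 3081, 3185 and 3344 in NSCs, against 14634, 13193 and 11652 in ESCs. Among Nodal and BMP genes 7 of 16 were higher and 4 lower. The ligand Nodal had 19.3, 34.8 and 34.5 reads in NSCs, against 3046, 3360.5 and 3538 in ESCs, the BMP antagonist Nog had 2405, 2461 and 2136 in NSCs, against 8.93, 67.7 and 38.4 in ESCs, and the ligand Bmp7 had 5099, 5102 and 4385 in NSCs, against 253, 261 and 333 in ESCs. The inhibitory SMAD gene Smad7 had 592, 674 and 570.4 reads in NSCs, against 3844, 3681 and 4047 in ESCs. Id3, a target of BMP signalling, had 6534, 6851 and 7051 reads in NSCs, against 2698, 3183 and 3277 in ESCs. Among FGF genes 6 of 15 were higher and 3 lower. The ligand gene Fgf9 had 140.4, 167 and 182 reads in NSCs, against 4.47, 25.7 and 0 in ESCs. The feedback inhibitor Spry1 rose, with 12559, 10532 and 12435 reads in NSCs, against 1559.6, 1324 and 1466 in ESCs, and the target Etv5 fell, with 5000.3, 5417 and 5195 in NSCs, against 22000.1, 21467 and 21305 in ESCs. The phosphatase gene Dusp4 had 842, 848 and 932 reads in NSCs, against 2946, 2754 and 2576 in ESCs.

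Of 26 tested cell cycle genes 8 were at least 2-fold higher and 7 lower, shares near those of all tested genes (24.4% and 21.4%), with a median of -0.18 that turned to 0.16 with equal totals. Ccnd2 (cyclin D2) had 59582, 61130.4 and 52203 reads in NSCs, against 882, 813 and 966 in ESCs (log2 fold change 6.02 ± 0.08), whereas Ccne1 (cyclin E1) had 1747, 1719 and 1686 in NSCs, against 15563, 15837 and 16704 in ESCs (log2 fold change -3.22 ± 0.06). Of the genes of cyclin-dependent kinase inhibitors, Cdkn2c (p18) had 2958, 2261 and 2448 reads in NSCs, against 51.4, 83.98 and 37.3 in ESCs, Cdkn1a (p21) had 20778, 23004 and 19672 in NSCs, against 2045, 2413 and 2396 in ESCs, and Cdkn2a had 2089, 1609.8 and 1489.7 in NSCs, against 431, 559.9 and 641 in ESCs. Mycn fell to 1031, 1108 and 1363 reads in NSCs, against 14321, 13649.5 and 13966 in ESCs, and the replicative helicase gene Mcm5 to 6923, 6220.4 and 6817 in NSCs, against 34219, 34588 and 35245 in ESCs. The proliferation markers Mki67 and Cdk1 did not pass. Mki67 had 17239.7, 14937 and 16121 reads in NSCs and 16445, 14023 and 12638 in ESCs (adjusted p = 0.0942), and Cdk1 had 8365, 7587 and 7958 in NSCs and 7431, 7764 and 8152 in ESCs (adjusted p = 0.631). Mki67 passed without ESC replicate 1 (adjusted p = 0.00328, limma) and without NSC replicate 2 (adjusted p = 0.0484), in both higher in NSCs. It also passed, higher in NSCs, with TMM factors (adjusted p = 0.041, limma) and with a replicate block (adjusted p = 0.0483, limma). In the quasi-likelihood test of edgeR its adjusted p was 0.0486, so that its call depended on the setting. With equal totals both genes passed and were higher in NSCs, by 0.504 and 0.368 on the log2 scale. Of 15 genes of p53 and apoptosis 5 were higher and 2 lower. Trp53 itself fell, with 5328, 5267 and 5067 reads in NSCs, against 29817, 27909 and 26887 in ESCs (log2 fold change -2.43 ± 0.06), while Bcl2, which blocks apoptosis, had 1708, 1501 and 1690.0 in NSCs, against 100.5, 97.98 and 95.5 in ESCs. The death receptor gene Fas had 282, 386 and 286 reads in NSCs, against 13.4, 51.3 and 9.32 in ESCs, and Pmaip1 (NOXA), which promotes apoptosis, had 1438, 1293 and 1362 in NSCs, against 3632, 3832 and 3963 in ESCs.

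Glycolytic and stress genes fell. Of 19 genes of glycolysis and its switch to respiration 15 were at least 2-fold lower and 0 higher (median -1.52), and with equal totals 12 were lower and 1 higher. Pdk1, the kinase that keeps pyruvate out of mitochondrial oxidation, had 835, 753 and 999 reads in NSCs, against 13100.1, 11973 and 12667 in ESCs (log2 fold change -3.87 ± 0.10), and Hk2 (hexokinase 2) had 1629.9, 1584 and 1741 in NSCs, against 12671, 11924 and 11572 in ESCs. Ldha, a subunit of lactate dehydrogenase, had 26791, 25770.0 and 27589 reads in NSCs, against 95779, 103911 and 110826 in ESCs. Pfkm, the muscle form of phosphofructokinase, was higher within 2-fold, with 3975, 3971 and 4012 in NSCs, against 2344, 2512 and 2639 in ESCs. Of 16 immediate early and stress genes 12 were at least 2-fold lower and 0 higher (median -2.35). Fosb had 78.95, 92.5 and 55.8 reads in NSCs, against 4942, 5437 and 5278 in ESCs, and Trib3, a target of the amino acid stress response, had 70.2, 103 and 46.8 in NSCs, against 1707, 1852 and 1883 in ESCs.

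Of 19 subunits of BAF nucleosome remodellers, which move nucleosomes along DNA, 6 were at least 2-fold higher and 4 lower, again near the shares of all tested genes. The 2 ATPases moved apart: Smarca2 (BRM) had 4284, 4009.9 and 4332 reads in NSCs, against 123, 120.1 and 95.5 in ESCs (log2 fold change 5.22 ± 0.13). Smarca4 (BRG1) had 18173, 16646 and 17468 in NSCs and 19630.0, 18238 and 18541 in ESCs (adjusted p = 0.096, limma). Its call depended on the setting: it passed at 0.22 with equal totals (adjusted p = 0.00212) and at -0.23 with chromosome medians removed (adjusted p = 0.0034). The core subunits Smarcc1 (BAF155) and Smarcc2 (BAF170) changed in opposite directions: Smarcc1 had 9914, 9345 and 9965 reads in NSCs, against 20323, 19826 and 20163 in ESCs, and Smarcc2 had 9226, 8866 and 9122 in NSCs, against 1756, 1584 and 1688 in ESCs. Likewise Smarcd1 (BAF60A) had 5556, 5123 and 5440.0 reads in NSCs, against 13905, 13216 and 12913 in ESCs, and Smarcd3 (BAF60C) had 2206, 2190.4 and 2374 in NSCs, against 169, 139 and 238 in ESCs. Smarcd2 (BAF60B) fell to 1759.8, 1828 and 1935 reads in NSCs, against 4409.9, 5138 and 4475 in ESCs. The progenitor subunit Actl6a (BAF53A) fell, with 3877, 3759.9 and 4073 reads in NSCs, against 10040.0, 10613 and 10774 in ESCs. Its neuronal counterpart Actl6b was listed for NSCs only, with 105, 159 and 222 scaled reads. Of 18 Polycomb genes 5 were higher and 8 lower (median -0.26, 0.08 with equal totals). Among the CBX subunits of PRC1, Cbx7 had 431, 432 and 430.1 reads in NSCs, against 10202, 10150.2 and 10028 in ESCs, and Cbx8 had 703, 524 and 648 in NSCs, against 98.2, 74.7 and 67.6 in ESCs. The PRC1 gene Bmi1 had 1704, 1463 and 1703 reads in NSCs, against 209, 176 and 146 in ESCs, and the PRC2 cofactor Jarid2 had 2552, 2408 and 2550.1 in NSCs, against 26028, 23252 and 22757 in ESCs.

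The DNA methylation machinery, the subject of the series, was tested gene by gene in these WT cells. Of 18 genes 4 were at least 2-fold higher and 5 lower, near the shares of all tested genes (24.4% and 21.4%). Tet1 (chr10:62804570-62887469) had 563, 606 and 762 reads in NSCs, against 14324, 12298 and 11146 in ESCs (log2 fold change -4.29 ± 0.12). Tet2 (chr3:133463677-133545136) had 1083, 1095 and 901 reads in NSCs, against 3386, 2829 and 2495 in ESCs (log2 fold change -1.49 ± 0.12). Tet3 (chr6:83362373-83457208) moved the other way, with 3438, 3459 and 3556 reads in NSCs, against 507, 385 and 564 in ESCs (log2 fold change 2.86 ± 0.13). The de novo methyltransferase gene Dnmt3b (chr2:153649411-153687730) had 411, 416 and 537 reads in NSCs, against 40239, 41419 and 40131 in ESCs (log2 fold change -6.49 ± 0.09). The other de novo enzyme, Dnmt3a, changed by -0.89 ± 0.06 and the maintenance enzyme Dnmt1 by -0.61 ± 0.07 on the same scale, and Uhrf1, which recruits Dnmt1 to replicated DNA, had 9249.7, 8727 and 9554 reads in NSCs, against 24658, 24687 and 25785 in ESCs. Gadd45g, of a family implicated in DNA demethylation, had 5514, 5216 and 4853 reads in NSCs, against 881, 1040.5 and 1127 in ESCs. Imprinted genes, whose expression follows parental methylation marks, mostly rose: 12 of 20 were at least 2-fold higher and 2 lower (median 1.79). Plagl1 (ZAC1) had 7209, 7849 and 7860.4 reads in NSCs, against 476, 374 and 250.4 in ESCs, and Nnat (neuronatin) had 14339.5, 13201 and 17262 in NSCs, against 725, 1166 and 847 in ESCs. H19 had 463, 491 and 264 reads in NSCs, against 1524, 1572 and 1395 in ESCs, and Snrpn had 3407, 3692 and 3478 in NSCs, against 11511, 11504 and 11858 in ESCs. Peg10 did not pass, with 16506, 15818 and 17426 in NSCs and 17889.5, 15282 and 13932 in ESCs (adjusted p = 0.354). It passed without ESC replicate 1 (log2 fold change 0.18, adjusted p = 0.0167) and with equal totals (0.42). Among RNA-binding and splicing regulators 8 of 17 were higher and 2 lower. Ptbp1, a repressor of neuronal splicing, had 22471, 22857 and 22322 reads in NSCs, against 52371, 49006 and 47493 in ESCs, Celf2 had 5991, 6427 and 6070.4 in NSCs, against 255, 371 and 345 in ESCs, Hmga2, whose mRNA is a let-7 target, had 7585, 8203 and 7702 in NSCs, against 923, 946 and 848 in ESCs, and Igf2bp1 had 4573, 4263 and 4549 in NSCs, against 30675, 32564 and 31334 in ESCs.

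**Figure D3:**
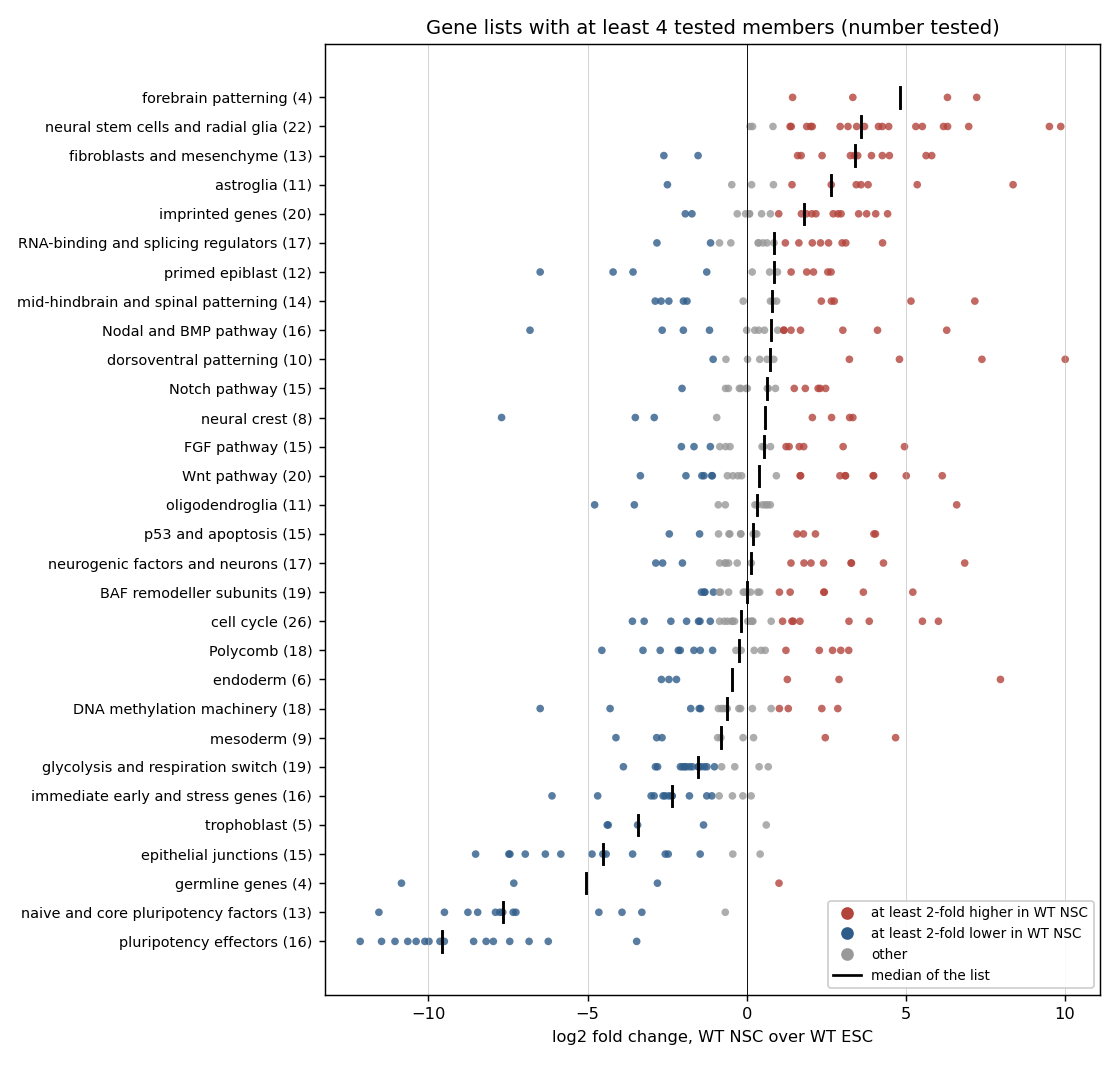
Log2 fold change of WT NSC over WT ESC for the tested members of each gene list with at least 4 of them, ordered by the list's median (black bar). Red members were at least 2-fold higher in NSCs, blue ones at least 2-fold lower, and grey ones were neither; medians run from 4.82 for forebrain patterning to -9.57 for pluripotency effectors.

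Some genes of each cell type have no fold change, because the 2 deposited tables list different genes. In the NSC table stood 2390 genes that the ESC table lacked (13.4% of its genes), and 1655 genes of the ESC table were not in the NSC table (9.71%). No listed gene had fewer than 51 reads over the 5 WT and TKO libraries of its table, so that a gene of 1 table may have been low, and not 0, in the other cell type. These genes were mostly low: their median WT level was 21.6 scaled reads for those of NSCs and 24.1 for those of ESCs. They took 0.543% of the WT NSC reads and 0.288% of the WT ESC reads. Of those of NSCs 72 reached 500 reads, of those of ESCs 53. In 115 of the NSC genes and 26 of the ESC genes under 20% of the reads lay in the 3 WT libraries and the rest in the 2 TKO libraries. Their levels are recovered reads on the same joint scale of the 6 WT libraries as those of the tested genes.

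The NSC genes of 1 table with the most reads included ventral and anterior patterning genes. Six3os1, the antisense RNA of the forebrain factor Six3, had 11027, 11784 and 11551 scaled reads in the WT NSC libraries, and Six3 itself 4013, 4678 and 4506. The labels do not state if counting used strand, and without strand, reads of any stretch that both genes cover cannot be told apart. Shh (sonic hedgehog), the ventralizing morphogen, had 5899, 7824 and 7054, and Wnt8b, a Wnt ligand of the cortical hem, had 5050.3, 3873 and 4282. Zic4, the neighbour of Zic1, had 4514, 3733 and 4904, and the forebrain repressor gene Fezf1 had 3465, 3788 and 3606. The rest of the 10 highest were C130093G08Rik, Vtn (vitronectin), Megf10, a phagocytic receptor of glia, and Mlc1, an astroglial membrane protein. Forebrain genes were frequent here: 10 of the list's 15 members were in the NSC table only, among them Emx2 with 683, 426 and 671 and Nkx2-1 with 295, 476 and 258. Of NSC and radial glia genes Nr2e1 (TLX) had 493, 455 and 675. Dcx (doublecortin), of young neurons, had 752, 777 and 927. The astrocyte genes S100b and Aqp4 were listed with 14.04, 3.66 and 4.92 and 3.51, 31.1 and 26.3 reads, close to the lower limit of the tables.

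In the ESC table alone stood further genes of pluripotency, the germline and the 2-cell-like state. Nr0b1 (DAX1), an orphan nuclear receptor of the pluripotency network, had 5349, 4556 and 4772 scaled reads in the WT ESC libraries. Dppa3 (STELLA), which protects the maternal genome from demethylation, had 4191, 5029.6 and 4369. Tcl1 had 2478, 2210.4 and 2126, the oocyte gene Ooep 1895, 1911 and 1949.7, and the keratin gene Krt42 2855, 2713 and 3077. The other 5 of the 10 highest were Triml2, Zfp988, AU015836, Zfp980 and Calcoco2, of which the zinc-finger genes belong to a family of near-identical copies that may share reads. Of 16 germline genes 11 were in the ESC table only, among them Dazl with 217, 224 and 165 and Mael with 246, 329 and 305. Of the 4 that could be tested 3 fell, among them Tex19.1 and the helicase gene Ddx4 (VASA), with 15.8, 0 and 8.21 scaled reads in NSCs, against 837, 796 and 938 in ESCs. Of 8 genes of 2-cell-like cells 5 were in the ESC table only, at low levels: Zscan4c had 89.3, 46.7 and 97.8 and Zscan4d 69.2, 32.7 and 39.6.

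**Figure D4:**
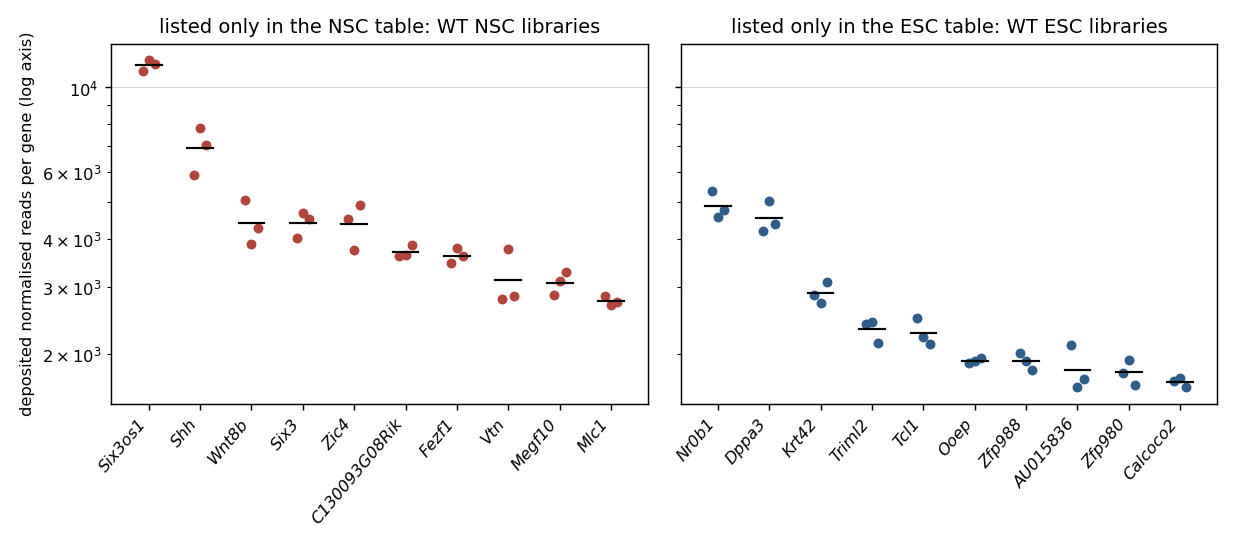
Scaled reads per gene (log axis, labelled there as deposited normalised reads) of the 10 genes with the highest WT mean among those listed in 1 table only. The 3 WT NSC libraries are on the left and the 3 WT ESC libraries on the right. Points are libraries and bars their means; Six3os1 and Shh have the most reads of the NSC genes, and Nr0b1 and Dppa3 of the ESC genes, with no correction for gene length.

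Genes of chromosome 8 and of the X chromosome differed as sets. The median log2 fold change of the 785 tested genes of chromosome 8 was -0.35, with 20.1% of them at least 2-fold higher and 30.3% lower. By library, the median difference of these genes from the mean of the other cell type was -0.37, -0.32 and -0.32 in the NSC libraries and 0.38, 0.35 and 0.35 in the ESC libraries. For the 500 genes of the X chromosome the median log2 fold change was 0.35, and the library medians were 0.37, 0.36 and 0.34 in NSCs and -0.36, -0.30 and -0.35 in ESCs. The other chromosomes had medians between -0.12 and 0.14. In TKO cells the median NSC over ESC change was -0.02 for chromosome 8 and 0.29 for the X chromosome. The copy number of these chromosomes in the lines was not measured here, and its part in these values was not tested. Among the genes above with a fold change, Sox1, Zfp42, Cdh1, Nfix, Mcm5, Tubb3 and Dusp4 lie on chromosome 8. Of the largest changes above, Gdpd2, Col4a6 and Trap1a lie on the X chromosome. With the median of each chromosome removed Sox1 changed by 7.32, Zfp42 by -11.21, Nfix by 5.70, Mcm5 by -2.04 and Dusp4 by -1.31 on the log2 scale. Without the genes of chromosome 8, 5569 genes were higher and 5401 lower.

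**Figure D5:**
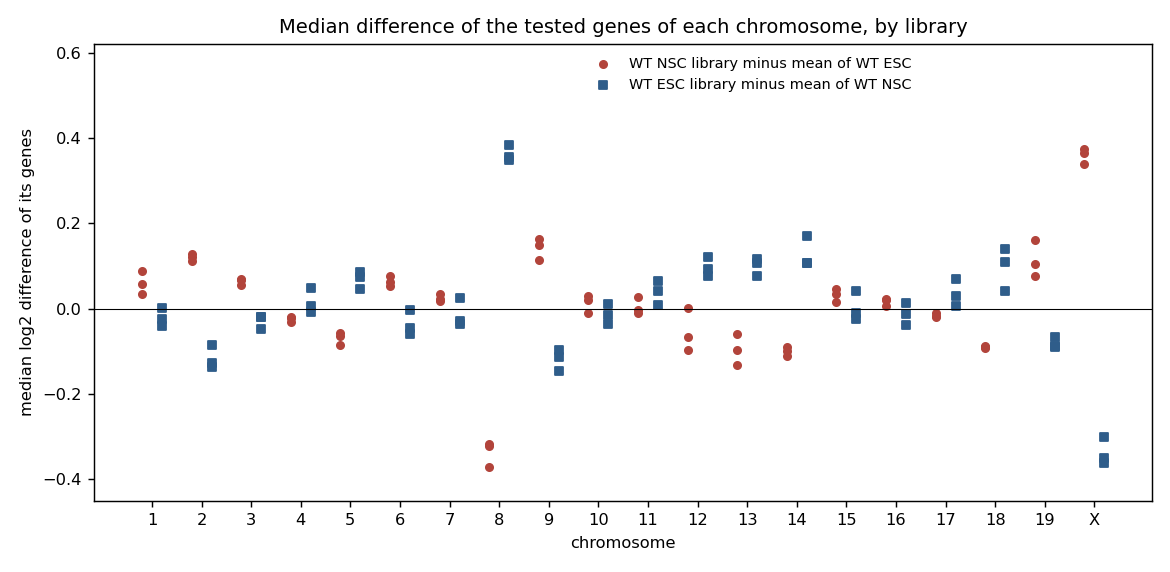
Median log2 difference of the tested genes of each chromosome, for each WT NSC library against the mean of the WT ESC libraries (circles) and for each WT ESC library against the mean of the WT NSC libraries (squares). On chromosome 8 the NSC libraries lie between -0.37 and -0.32, and on the X chromosome between 0.34 and 0.37.

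Promoter contacts were mapped in 1 WT NSC library by promoter capture Hi-C, in which loops from promoter fragments are listed with a score. With no ESC library, these loops describe NSCs alone, and no test was made. The authors' list held 59754 lines with scores between 5 and 55.0, the authors' own value. A gene was given a loop where a listed fragment, on either side of a loop, held either end of its annotated span. Counts may thus include loops at the far end of a gene, and 0 means only that none was listed. Of genes at least 2-fold higher in NSCs 79.2% had a loop, of those at least 2-fold lower 77.5%, and of the other tested genes 80.6%. Among genes at least 8-fold higher the share was 76.1%, and among those at least 8-fold lower 70.0%. With a score of at least 10 these last 2 shares were 23.0% and 13.2%, those of the 2-fold groups 26.6% and 30.0%, and that of the other tested genes 31.7%. Genes of both directions had many loops or none. Among genes higher in NSCs, Zic1 had 6 loops with a highest score of 28.4, and Ccnd2 7 with a highest score of 29.5. Sox1 had 9, Fabp7 7, Nes 6 and Pax6 4, whereas Nr2f1, Nfia, Cdh2 and Lhx2 had 0 in the list. Among genes lower in NSCs, Ncl had 24, Tcf7l1 17, Sox2 16, Trp53 12, Dnmt3l 11 and Nanog 2, whereas Pou5f1, Zfp42 and Dppa2 had 0. Shh, listed for NSCs only, had 21 loops, with a median distance of 742 kb.

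The same step was also taken by TKO cells, and the change in WT was tested against that in TKO over the 10 libraries. Of 15381 genes 3130 (20.3%) differed at an adjusted p under 0.05, with 1544 where the WT change was above the TKO change (10%) and 1586 where it was below (10.3%). Nes, Sox1, Pou5f1 and Nanog changed in the same direction in WT and in TKO. Pax6 changed by 4.46 in WT and by 0.02 in TKO, a difference of 4.44 ± 0.47 (SE, adjusted p = 1.99e-05). Pou5f1 changed by -7.75 in WT and by -5.20 in TKO, a difference of -2.55 ± 0.30 (adjusted p = 4.84e-05). Sox2 changed by -0.67 in WT and fell further in TKO, a difference of 1.33 ± 0.13 (adjusted p = 8.17e-06). Leaving out TKO NSC replicate 1 left 2061 genes that differed. With 2 TKO libraries in each cell type, these tests rest on the spread pooled over all 4 groups. The TKO libraries share line names between the cell types, and that pairing was left out of the tests.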

How the data were processed

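RNA-seq of 3 WT NSC and 3 WT ESC samples was analysed. Per the submitters' processing notes reads were handled on mm10, with STAR 2.7.3a, Trim Galore 0.6.5, DESeq2 1.40.2 and featureCounts among the tools named, without their roles. The deposited values are a non-negative signal, gene counts divided by size factors by the authors, in 1 table per cell type, each normalised on its own over WT and TKO libraries. Whole reads were recovered by dividing each library's values by their smallest value above 0, and 100% came out whole within 1e-06. Between 75.5% and 82.7% of values of up to 20 reads were even, as counts of both mates would be, so that the totals of 42.0 to 46.9 M reads correspond to 21.0 to 23.5 M pairs. No column was left unused (0 columns).

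Median-of-ratios scaling was applied to the 6 libraries jointly over genes of both tables, and log2(scaled reads + 1) was tested with limma 3.58.1 (trend, two-sided) in R 4.3.3, where a gene's mean reached 10, with Benjamini-Hochberg adjustment and a threshold of 0.05. Fold changes on this scale understate those of low genes. The count models of edgeR 4.0.16 and DESeq2 1.42.0 on the recovered reads were alternatives. WT and TKO changes were compared as an interaction over 10 libraries. On simulated counts of the real genes the WT comparison called 92% of 2-fold and 100% of 4-fold changes, with 0.04% of unchanged genes called, and the interaction 48% and 91%. In each simulation 200 genes changed, equally up and down, and all genes had a common dispersion. These shares therefore cannot give the rate of false calls, or the effect of the scaling, where most genes change. The p-values measure the spread between the 3 lines, and no replicates agreed within sampling noise (chi-square per degree of freedom 9.18 to 25.6). Same-numbered NSC and ESC libraries did not deviate together (correlations -0.03 to 0.02).

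The members and lists were chosen with earlier results of these data known. Genes were named by rule: 5 markers, the 12 largest changes in each direction (at least 2-fold, mean of at least 500 in the higher group, no overlap), the 8 largest gains and losses of reads, the 10 highest genes of each table alone, the 2 largest changes in each direction and the most abundant member of each list, and 11 set genes. Not every gene of the rule is printed, and some items are not reported here. Hes1, Notch1, Smarcc1, Smarcc2, Smarcd1, Foxa2, Cdkn1a, Cdkn2a, Mki67, Cdk1, Otx2, Cdh2, Lin28a, Klf4, Esrrb, Ldha, T, Col3a1, En1, Hopx, Slc1a3, Uhrf1, Sox9, Aldh1l1 and Mcm5 were added after their values were seen, as were the members of lists named among genes of 1 table, and the loops described.

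The deposited loop list gives a score per loop, which is the authors' own. The TKO loops, bisulfite sequencing and CUT&Tag were not used here. Symbols were matched to GRCm38.p6 (mm10) for 95.1% of tested genes, and promoters are from RefSeq. Alternatives were other scalings, tests, pseudocounts (0.5 and 5), filters, a replicate block, halved reads and leaving out each library, and, chosen after seeing the data, leaving out chromosomes 8 and X and removing chromosome medians.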

Additional observations from a re-analysis of the deposited data

Results flagged for a closer look

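For 13 of the 16 markers and set genes tested, the NSC over ESC change differed between WT and TKO (limma interaction, adjusted p under 0.05), against 20.3% of all genes. The set was chosen with earlier results of these data known and holds the Tet genes themselves. Its share is therefore no test of enrichment. The differences below are the WT log2 change minus the TKO log2 change, with 3 WT and 2 TKO libraries in each cell type. Among neural genes Pax6 differed by 4.44, Sox1 by 2.58, Fabp7 by 1.89 and Nes by 0.44. Of these, Sox1, Fabp7 and Nes rose in both genotypes, and by more in WT. Olig2 differed by 4.89, Gfap by 3.61 and Sox2 by 1.33, and all fell in TKO. Olig2 changed by 0.503 in WT and by -4.39 in TKO. Gfap changed by 0.84 in WT, where it was not called, and by -2.77 in TKO. Its reads were few, 11.8 and 6.64 in TKO NSCs, against 78.1 and 56.2 in TKO ESCs. Sox2 fell in both genotypes, and further in TKO. Tubb3 differed by -0.58. The pluripotency genes Pou5f1 and Nanog differed by -2.55 and -1.91, that is, they fell further in WT. Dnmt3b differed by -2.42, Tet1 by -0.69 and Tet2 by -0.69; the Tet genes are the targets of the knockout, so that their reads in TKO cells come from altered genes.

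Pax6 was low in both TKO cell types. It had 200.5 and 66.4 scaled reads in TKO NSCs, against 112 and 116 in TKO ESCs. The calls of Nes, Sox1, Nanog, Fabp7, Tet1, Tet2 and Tubb3 were lost under at least 1 alternative. Without TKO NSC replicate 1 the adjusted p was 0.119 for Nes, 0.0839 for Sox1, 0.102 for Nanog, 0.0532 for Fabp7 and 0.0946 for Tubb3. Those of Pax6, Pou5f1, Sox2, Dnmt3b, Gfap and Olig2 held in each alternative tried.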

How the results depend on the processing

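Over 21 alternatives to the WT comparison, the counts of higher and lower genes, and those past 2-fold, stayed within 1.5 times: higher 5323 (without chromosomes 8 and X) to 7224 (equal totals), lower 4548 (equal totals) to 5822 (pseudocount 5). Leaving out 1 library gave 5516 to 5797 higher and 5525 to 5732 lower, and past 2-fold 3629 to 3743 higher and 3209 to 3254 lower. The replicate block gave 5739 higher and 5706 lower, edgeR 5901 and 5634, and DESeq2 5756 and 5772. The numbers shared by WT NSC and WT ESC replicates are not known to pair them, and not every library correlated best with its own number. The TKO libraries share line names between the cell types. The block has a term per number over WT and TKO together, and so does not model that pairing. For 187 named genes 3859 of 3903 gene-by-alternative results kept direction and call. Sign turned for Smarca4, at 0.22 with equal totals, which raise each value by 0.33, and for Cdk1, which ran from -0.0016 to 0.078 over left-out libraries. The count that differed between WT and TKO was 2061 to 3276 over left-out libraries, the lowest without TKO NSC replicate 1 and the highest without WT ESC replicate 1 (a lone sample is assumed to vary like the other groups), and 2877 with the block. The interaction of Dnmt3a, near 0, was 0.011 with TMM factors, 0.016 with edgeR, 0.0018 with DESeq2 and -0.0885 to 0.0806 over left-out libraries. The share of genes at least 2-fold higher with a loop was 26.6% at a score of at least 10, where fewer loops are counted. Depth limits genes of a few reads, whose changes depend on the pseudocount.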
